A study of Mus musculus with 4 samples.

Results

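The erythroid genes other than the globins make the heme, the membrane proteins and the transcription regulators of red blood cells. They were taken by symbol from a list of 8 genes, and 7 of the 8 were found among the 40999 features listed in each library. The 7 genes are Alas2, Slc4a1, Epb42 (listed in the files as Epb4.2), Rhag, Klf1, Gata1 and Hemgn, and the eighth was not analysed here. All 7 passed the filter on low counts in every comparison, and the lowest count of any of them was 21, for Klf1 at E12.5.

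Total RNA of gonads from wild-type C57BL/6J mouse embryos was profiled daily between E11.5 and E14.5 by SEQuoia complete stranded RNA-seq, a method that tails long and short RNAs alike and marks each molecule with a unique identifier (UMI). XX and XY gonads of several embryos were pooled in equal numbers at each time point, so the sexes cannot be told apart. The E11.5 pool was made of whole genital ridges with the mesonephros, the transient kidney beside the gonad, and the mesonephros had been removed at the later time points. Each pool gave 1 library, so no time point has a replicate and every comparison below is between libraries, not conditions.

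Deposited counts summed to between 25593453 at E12.5 and 31752562 at E13.5. In order of age, ribosomal RNA genes took 17.7%, 8.90%, 8.72% and 48.9% of the counts. All fold changes are therefore relative to the median gene, by the TMM (trimmed mean of M values) scaling of edgeR. Without it the median gene of the E14.5 library would shift by −1.07 on the log2 scale against E13.5. As a measure of gonad RNA, 8 Sertoli cell markers summed to 579, 1317, 1183 and 1150 CPM (counts scaled to the library size after TMM) in order of age. At E11.5 Wt1 alone held 10724 of their 19837 counts, and Amh, Dhh, Cst9 and Ptgds had 45, 63, 66 and 14. The part of the mesonephros in that sum was not tested.

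As background, red cells of the midgestation mouse embryo come in overlapping waves. Primitive erythroblasts leave the yolk sac as nucleated cells rich in embryonic globins and mature together in the bloodstream, and they are then joined by definitive red cells from the fetal liver, which make adult globins. Globin mRNA persists until late in the maturation of an erythroid cell. A gonad dissected with its vessels holds blood, and in RNA from whole tissue fewer red cells and less RNA per red cell cannot be told apart.

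Globin mRNA was abundant in all 4 libraries and changed type. The embryonic globins Hba-x, Hbb-y and Hbb-bh1 together took 67.7%, 44.5%, 17.5% and 4.92% of all globin counts in order of age. The summed level of all 7 globins was 2042, 3581, 3482 and 3275 CPM in order of age. The 7 erythroid genes summed to 71.8, 67.2, 118 and 104 CPM in the same order. Their summed count per 1000 globin counts was 35.2 (exact 95% interval 33.8 to 36.6), 18.8 (18.0 to 19.6), 34.0 (33.0 to 35.0) and 31.6 (30.2 to 33.1). The E12.5 library thus held the least erythroid message per globin message, and its interval did not overlap those of the other libraries. All such intervals cover counting error only.

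The regulators were measured first. Gata1, on the X chromosome at 7959260–7967910 of mm10 on the minus strand with 6 exon blocks, encodes the zinc finger factor that red cell, megakaryocyte and mast cell development depend on. It had 75, 40, 99 and 72 counts from E11.5 to E14.5, or 2.19, 1.27, 2.50 and 3.82 CPM. The level was lowest at E12.5 and highest at E14.5. The log2 fold change was −0.78 from E11.5 to E12.5 (counting interval −1.37 to −0.21), 0.97 from E12.5 to E13.5 (0.43 to 1.54) and 0.63 from E13.5 to E14.5 (0.17 to 1.08). Gata1 was not called a differentially expressed gene (DEG, at least 2-fold and FDR at most 0.05) between neighbouring days.

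Klf1, on chromosome 8 at 84901928–84905295 on the plus strand with 3 exon blocks, encodes the factor that activates the adult beta-globin gene and many red cell membrane genes. It had 59, 21, 136 and 89 counts from E11.5 to E14.5, which are 1.72, 0.669, 3.44 and 4.73 CPM. The E12.5 library stood below the other 3. Klf1 fell 2.56-fold from E11.5 to E12.5, a log2 fold change of −1.36 (−2.16 to −0.62). It then rose 5.10-fold to E13.5, a log2 fold change of 2.35 (1.69 to 3.10).

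Hemgn, on chromosome 4 at 46393989–46404183 on the minus strand with 4 exon blocks, encodes hemogen, a nuclear protein of blood-forming and erythroid cells. It had 216, 28, 415 and 211 counts from E11.5 to E14.5, which are 6.30, 0.892, 10.5 and 11.2 CPM. Of the 7 genes it had the widest range over the 4 libraries, and the E12.5 library stood far below the rest. Hemgn fell 7.03-fold to E12.5 (log2 fold change −2.81, −3.44 to −2.25) and rose 11.7-fold to E13.5 (3.55, 3.0 to 4.16).

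The membrane genes did not move alike. Rhag, on chromosome 17 at 40811099–40840754 on the plus strand with 10 exon blocks, encodes the Rh-associated glycoprotein, the partner that the Rh blood group proteins need at the red cell surface. It had 61, 28, 150 and 106 counts from E11.5 to E14.5, or 1.78, 0.892, 3.79 and 5.63 CPM. Rhag resembled Klf1, with its lowest level at E12.5 and its highest at E14.5. The fall to E12.5 missed the 2-fold line, with a log2 fold change of −0.99 (−1.70 to −0.33). Rhag then rose 4.23-fold to E13.5 (2.08, 1.49 to 2.72).

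Slc4a1, on chromosome 11 at 102348820–102365281 on the minus strand with 20 exon blocks, encodes band 3, the anion exchanger that also anchors the membrane skeleton. It had 1540, 1256, 2650 and 886 counts from E11.5 to E14.5, or 44.9, 40.0, 67.0 and 47.1 CPM. Slc4a1 was highest at E13.5 and differed little between the other 3 libraries. Its log2 fold changes were −0.17 (−0.27 to −0.06), 0.74 (0.64 to 0.84) and −0.49 (−0.60 to −0.38) in order of age, and none was called. The rise to E13.5, 1.67-fold, met the FDR threshold and missed the 2-fold line. The change to E12.5 has the opposite sign, 0.12, when the deposited TPM are compared.

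Epb42, on chromosome 2 at 121018212–121036755 on the minus strand with 14 exon blocks, encodes protein 4.2, which ties band 3 to ankyrin. It had 131, 146, 229 and 94 counts from E11.5 to E14.5, or 3.82, 4.65, 5.79 and 4.99 CPM. Epb42 had the narrowest range of the 7 genes over the 4 libraries, with log2 fold changes of 0.28 (−0.07 to 0.64), 0.31 (0.01 to 0.62) and −0.19 (−0.56 to 0.16), none called.

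Alas2, on the X chromosome at 150547417–150570622 on the plus strand with 12 exon blocks, encodes the erythroid enzyme of the first and rate-limiting step of heme synthesis. It had 380, 588, 1010 and 491 counts from E11.5 to E14.5, which are 11.1, 18.7, 25.5 and 26.1 CPM. Alas2 was the only one of the 7 genes whose CPM was not lower than the day before in any library. Its log2 fold changes were 0.76 (0.57 to 0.95), 0.44 (0.29 to 0.59) and 0.05 (−0.11 to 0.21), none called.

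**Figure D1:**
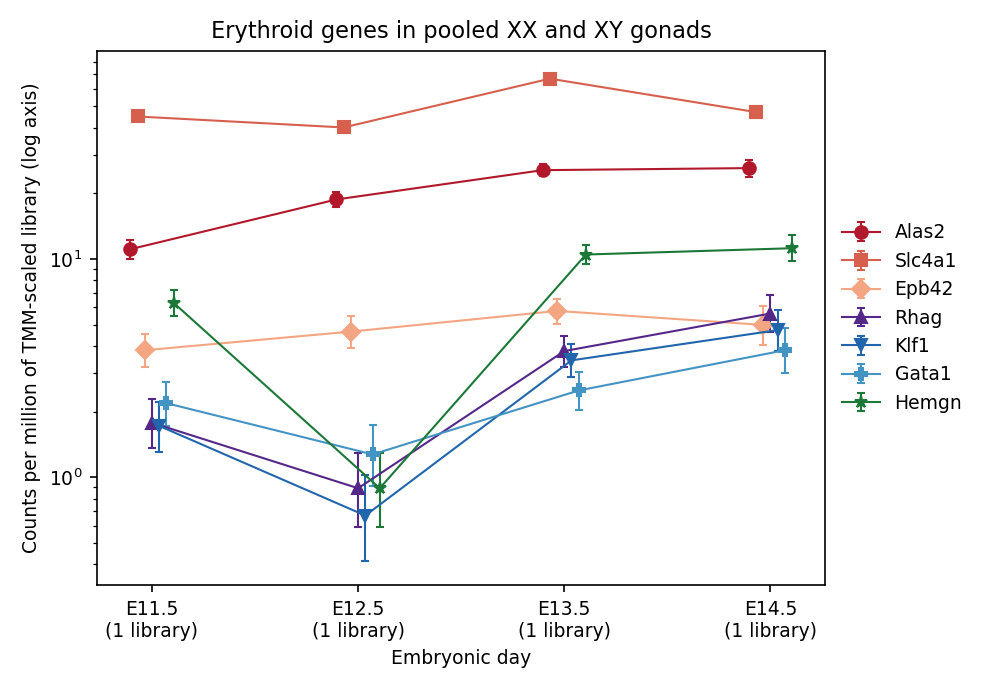
Level of the 7 erythroid genes in the 4 libraries, in CPM after TMM scaling on a log axis, with exact 95% Poisson intervals for counting error. Hemgn, Klf1, Rhag and Gata1 dip at E12.5, whereas Alas2 and Epb42 do not and Slc4a1 changes little.

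Per length, the order of the genes also differed between libraries. At E11.5 Slc4a1 was highest at 15.2 TPM (the deposited level scaled for transcript length), followed by Alas2 at 8.55 TPM and Hemgn at 4.21 TPM, and the intervals of these 3 did not overlap. The other 4 genes lay between 1.14 TPM for Rhag and 1.78 TPM for Gata1, each overlapping its neighbour in the order. At E12.5 Alas2 at 17.6 TPM (16.2 to 19.1) and Slc4a1 at 16.6 TPM (15.7 to 17.5) overlapped, and Hemgn at 0.727 TPM had dropped to the level of Rhag at 0.694 TPM. Only Epb42 at 2.36 TPM stood apart from both ends of that order.

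At E13.5 the order was Slc4a1 at 30.3 TPM, Alas2 at 26.2 TPM, Hemgn at 9.34 TPM and Klf1 at 4.61 TPM, all separated by their intervals, with Rhag, Epb42 and Gata1 between 2.71 and 3.23 TPM. At E14.5 Alas2 came first at 8.73 TPM and Slc4a1 came next at 6.93 TPM, whose intervals did not overlap. Hemgn followed at 3.25 TPM and the other 4 genes overlapped their neighbours from 2.07 TPM for Klf1 down to 0.902 TPM for Epb42. The E14.5 TPM are all lowered by the share of ribosomal RNA, and the order within that library is not affected by it.

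Ratios within a library do not depend on how libraries are scaled. Per 1000 counts of Slc4a1, Hemgn had 140 (121 to 162), 22.3 (14.8 to 32.4), 157 (141 to 174) and 238 (204 to 277) counts in order of age. Klf1 had 38.3 (29.0 to 49.7), 16.7 (10.3 to 25.7), 51.3 (42.9 to 61.0) and 100.5 (79.9 to 125), and Rhag had 39.6 (30.1 to 51.2), 22.3 (14.8 to 32.4), 56.6 (47.7 to 66.7) and 120 (96.9 to 146). For Hemgn and Klf1 the E12.5 interval lay below those of the other 3 libraries, and for all 3 genes the E14.5 interval lay above the others.

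Gata1 had 48.7 counts per 1000 of Slc4a1 (38.1 to 61.4), 31.8 (22.6 to 43.6), 37.4 (30.3 to 45.7) and 81.3 (63.0 to 103). The E11.5, E12.5 and E13.5 intervals overlapped, which does not show that the ratios were equal. Alas2 went the other way at E12.5, with 247 (220 to 276), 468 (424 to 517), 381 (354 to 410) and 554 (495 to 619). Epb42 stayed between 85.1 and 116, and its intervals in the 4 libraries overlapped.

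**Figure D2:**
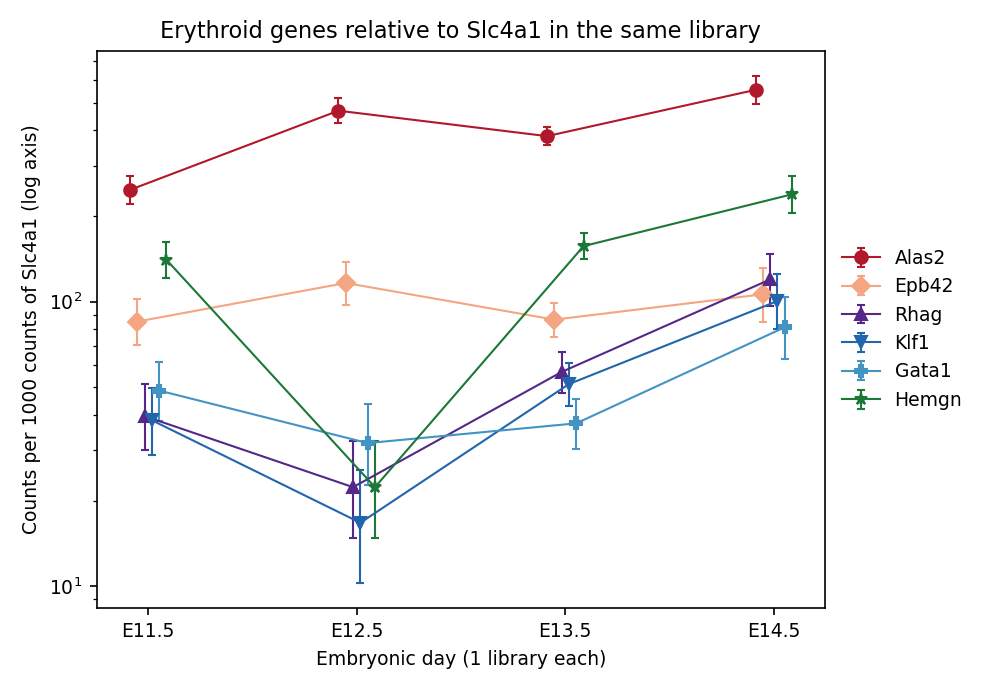
Counts of 6 erythroid genes per 1000 counts of Slc4a1 in the same library on a log axis, with exact 95% intervals for counting error. Hemgn drops from 140 at E11.5 to 22.3 at E12.5 and returns to 157 at E13.5, while Alas2 is higher at E12.5 (468) than at E11.5 (247).

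From E11.5 to E12.5, 2 of the 7 genes were down-regulated (Hemgn and Klf1) and none was up-regulated. Over all 19215 genes tested, 7.15% were down-regulated, 7.16% up-regulated and 14.3% called in either direction. The median log2 fold change was −0.78 over the 7 genes and −0.00 over all genes tested. The summed level of the 7 genes changed by −0.10 on the log2 scale (−0.18 to −0.01), and this sign turned with total counts (0.06), with TPM (0.23) and without Slc4a1 (0.01). With the biological coefficient of variation set to 0.2 instead of 0.1, only 1 of the 7 was called, beside 1822 of the 19215 genes tested.

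From E12.5 to E13.5, 3 of the 7 genes rose (Hemgn, Klf1 and Rhag) and none fell, where 1.27% of the 19152 genes tested were up-regulated, 0.606% down-regulated and 1.88% called in either direction. All 7 log2 fold changes were above 0, with a median of 0.97 against 0.00 over all genes tested. The summed level changed by 0.82 on the log2 scale (0.74 to 0.89). The 3 calls stayed at a biological coefficient of variation of 0.2, where 54 of the 19152 genes tested were called. They were lost at 0.4, where 1 gene was called.

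From E13.5 to E14.5 none of the 7 genes passed the test, where 4.28% of the 18992 genes tested were up-regulated, 0.595% down-regulated and 4.87% called. The median log2 fold change was 0.11 over the 7 genes and 0.01 over all genes tested. With total counts in place of TMM, which count the ribosomal RNA, 3 of the 7 were called down and every one of the 7 values was below 0. On that scaling 11124 of the 18992 genes tested were called down.

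The 3 libraries made without mesonephros were also compared end to end, in a comparison that shares its libraries with those of neighbouring days. From E12.5 to E14.5, Hemgn rose 12.6-fold (log2 fold change 3.65, 3.09 to 4.29), Klf1 7.07-fold (2.82, 2.13 to 3.59), Rhag 6.33-fold (2.66, 2.06 to 3.33) and Gata1 3.02-fold (1.59, 1.02 to 2.19). These 4 of 7 calls stand beside 6.45% of the 18704 genes tested that were up-regulated, 1.45% down-regulated and 7.90% called. At a biological coefficient of variation of 0.4, 1 of the 4 calls was left, beside 72 over all genes tested. The first 3 kept their sign under every scaling, and Gata1 had a log2 fold change of 0.55 with total counts and 0.10 with TPM. Alas2 (0.49), Slc4a1 (0.24) and Epb42 (0.11) were not called, and their signs turned with total counts and with TPM.

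The windows from 250 bases before to 50 bases after the RefSeq transcript start (GRCm38.p6) were searched for the letters of the GATA motif, AGATAA or TGATAA on either strand, since Gata1 is itself among the genes. A window was found for 6 of the 7 genes, not for Slc4a1, and 5 of the 6 held a match, as did 18.6% of 32851 promoter windows of the same length. The exception was Gata1. The letters CCNCNCCC, of the type bound by Klf1, were found in 3 of the 6 (Alas2, Gata1 and Hemgn) and in 49.5% of all windows, on either strand and with overlapping matches in Alas2 and Hemgn. A match is a description of the sequence and not a binding site.

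The stretch from 60 bases before the match to 5 after it is shown for the 3 genes that rose at E13.5 and for Alas2, which did not pass the test, with the match or its reverse complement in capitals. The Hemgn match begins 13 bases before the start on the gene's own strand, and those of Rhag, Klf1 and Alas2 begin 31, 80 and 86 bases before it on the opposite strand. They lie at chr4:46404186-46404256 (minus strand), chr17:40811058-40811128 (plus), chr8:84901842-84901912 (plus) and chrX:150547271-150547341 (plus). The exons listed in the files begin before the RefSeq start for Rhag and Klf1, and the Rhag match lies inside the listed exon.
Hemgn: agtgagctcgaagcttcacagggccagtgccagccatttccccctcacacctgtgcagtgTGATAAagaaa
Rhag: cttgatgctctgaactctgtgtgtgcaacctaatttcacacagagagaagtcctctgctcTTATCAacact
Klf1: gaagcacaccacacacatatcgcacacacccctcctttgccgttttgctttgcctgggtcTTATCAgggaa
Alas2: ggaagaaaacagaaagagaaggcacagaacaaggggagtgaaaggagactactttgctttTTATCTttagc

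Around these genes, 74 further genes of the red cell programme in 6 lists were followed. They cover heme synthesis (8 genes), heme and iron transport (11), the membrane and blood groups (17), enzymes and late maturation (19), transcription regulators (13) and erythropoietin signalling (6). At E13.5 against E12.5, 13 of the 74 were called up and none down, where 1.27% of all genes tested were up-regulated. The median log2 fold change of the 74 was 0.31, with 60 values above 0 and 14 below. With the biological coefficient of variation set to 0.2, 3 of these calls were left, and 0 with it set to 0.4. Over all 19152 genes tested, 54 and 1 were left.

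The membrane and blood group list held most of them, with 8 of 17 up and a median of 1.20. Tspo2, a cholesterol-handling membrane protein of erythroid cells, rose by 2.21 on the log2 scale (1.24 to 3.36), with 1, 10, 59 and 30 counts in order of age. Rhd, the Rh blood group protein that pairs with the product of Rhag, had 86, 47, 169 and 121 counts and rose by 1.51 (1.03 to 2.01). Sptb, the beta spectrin of the red cell skeleton, rose by 1.34 (1.18 to 1.52), after 1676, 376, 1207 and 683 counts.

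Also up at E13.5 were Ank1 (1.29), Tmod1 (1.23) and Ermap (1.20), which encode ankyrin, an actin-capping protein and a blood group antigen. Epb41, for protein 4.1, had the highest TPM of the list at E11.5 to E13.5 and was 17.4 TPM at E13.5. Spectrin and ankyrin are also made outside red cells, and the share of each gene that came from red cells was not tested.

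In the enzyme and late maturation list 3 of 19 rose at E13.5, with a median of 0.29. Nxpe2 had 29, 19, 184 and 109 counts in order of age and rose by 2.93 on the log2 scale (2.25 to 3.70). Pklr, the pyruvate kinase of red cells and liver, had 61, 46, 234 and 196 counts and rose by 2.01 (1.55 to 2.50). Cldn13, a claudin of mouse erythroid cells, rose by 2.0 (0.97 to 3.23) from 9 to 46 counts. Prdx2, a peroxiredoxin abundant in red cells and in many other cells, had the highest TPM of the list, 271 at E12.5 and 245 at E13.5, and was not called.

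The remaining lists moved less at E13.5. In heme synthesis all 8 log2 fold changes were above 0, with a median of 0.18. Only Alas1 was called, the form of the enzyme that other cells use in place of Alas2. It had 718, 1342, 4285 and 2235 counts and rose by 1.34 on the log2 scale (1.25 to 1.43), so that at E13.5 its level was 67.9 TPM beside 26.2 TPM for Alas2. Steroid-making cells also express Alas1. In erythropoietin signalling all 6 log2 fold changes were above 0, with a median of 0.35. Only Socs3 was called, a feedback inhibitor of cytokine signalling that is not specific to red cells (1.09, 1.0 to 1.17). None of the 13 transcription regulators was called, the most abundant of them being Ldb1, an adaptor of the Gata1 complex, at 65.5 TPM. None of the 11 transport genes was called either, among them Tfrc, the transferrin receptor, at 50.3 TPM.

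Epor, the erythropoietin receptor, had 68, 41, 100 and 68 counts, a dip and a return like those of Gata1. Its log2 fold change was 0.95 (0.41 to 1.51) at E13.5, not called, and it rose by 1.47 (0.90 to 2.07) from E12.5 to E14.5. Gfi1b, a repressor of the red cell and megakaryocyte lines, had 28, 22, 61 and 37 counts. It was not called at E13.5 (1.13, 0.41 to 1.91) and rose by 1.49 (0.70 to 2.33) from E12.5 to E14.5.

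From E11.5 to E12.5 10 of the 71 genes tested in the 6 lists were called, 5 in each direction, with a median of −0.08. That is close to the 14.3% called over all genes tested, so the count does not set the lists apart. The split became 7 up and 3 down with total counts, and 5 calls were left at a biological coefficient of variation of 0.2 and 0 at 0.4. Over all 19215 genes tested, 1662 were up and 1120 down with total counts, and 1822 and 286 were called at 0.2 and 0.4. The 5 that fell were Gata2 (−2.59), Sptb (−2.03), Bcl11a (−1.57), Dmtn (−1.14) and Add2 (−1.13), of which Gata2, Bcl11a and Add2 are also expressed outside blood. The 5 that rose were Steap3 (1.58), an iron reductase, Socs3 (1.26), Mkrn1 (1.18), Xk (1.05) and Alas1 (1.03). The E11.5 library alone held mesonephros, and its part in these changes was not tested.

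From E13.5 to E14.5 none of the 73 genes tested in the lists was called, and their median was 0.04. Pklr (0.83) met the FDR threshold and missed the 2-fold line. From E12.5 to E14.5 17 of 73 were called up and none down, where 6.45% of all genes tested were up-regulated. The median of the 73 was 0.35, and 8 of the 17 were membrane or blood group genes. With total counts, a scaling that shifts the median gene by −1.04, 26 were called instead, 6 of them up and 20 down. Over all 18704 genes tested, 379 were up and 9854 down on that scaling. With the biological coefficient of variation set to 0.2 or 0.4, 11 or 0 calls were left in the lists. Over all genes tested 817 or 72 were left. The largest among the 17 were Nxpe2 (3.26), Pklr (2.84), Tfr2 (2.60), which encodes an iron-sensing receptor, and Cldn13 (2.42). Tspan33 (1.10) and Blvrb (1.0) were the other enzyme and late maturation genes among them, and Tspo2 (2.32), Rhd (2.11) and Icam4 (1.64), a blood group adhesion protein, were among those of the membrane list.

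**Figure D3:**
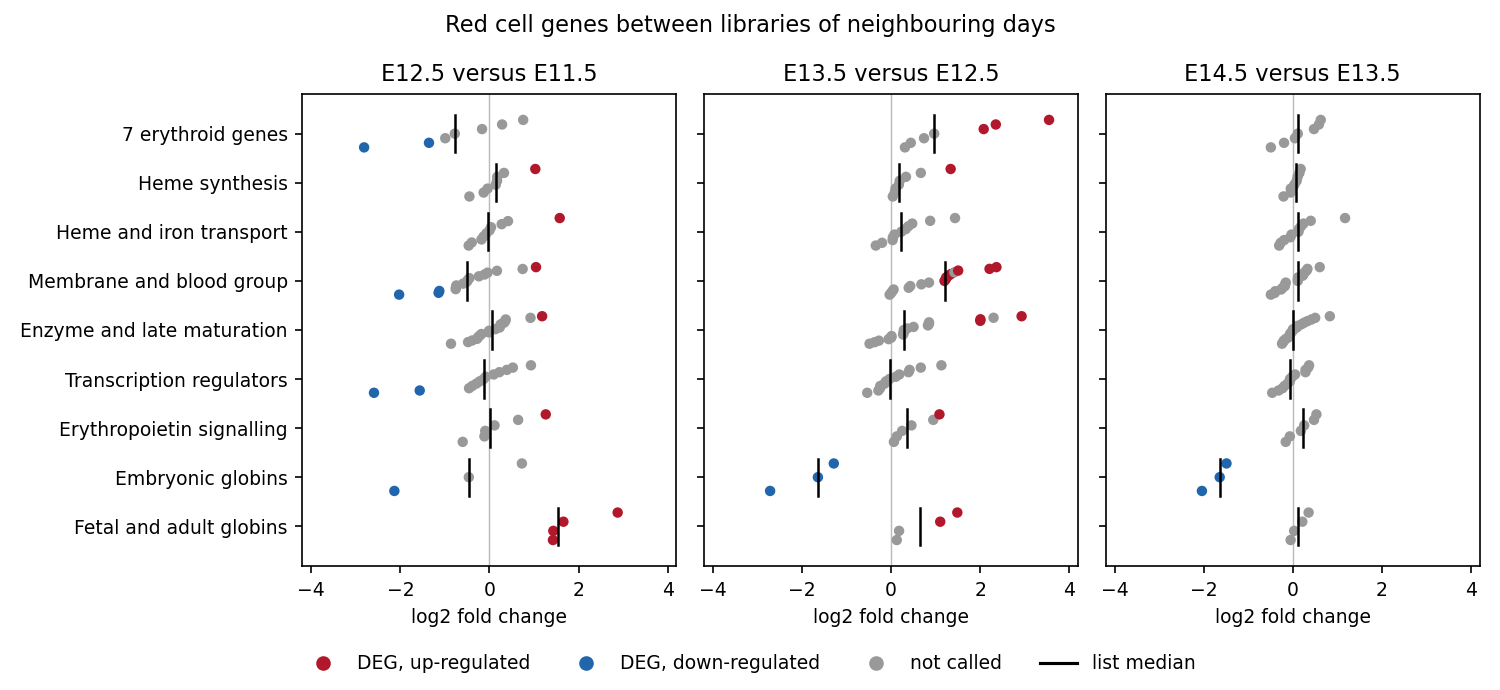
Log2 fold changes between libraries of neighbouring days for the 7 erythroid genes, the 6 red cell lists and both globin lists, 1 point a gene, with DEGs in red (up) or blue (down), genes not called in grey and a bar at each list's median. At E13.5 the 7 genes (median 0.97) and the membrane and blood group list (1.20) lie to the right of 0, and at E14.5 the list medians other than that of the embryonic globins lie between −0.06 and 0.22.

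The adult globins were higher at E12.5 than at E11.5. Hbb-bs, an adult beta globin, had 1399, 9419, 33377 and 20084 counts and rose by 2.88 on the log2 scale (2.80 to 2.96) to E12.5 and by 1.49 (1.45 to 1.52) to E13.5. Hbb-bt, its near-identical neighbour, had 1500, 4341, 11785 and 6429 counts. Hba-a1 and Hba-a2, which encode the same protein, had 9109, 22530, 31105 and 14149 counts (Hba-a1) and 10615, 26110, 37374 and 17955 counts (Hba-a2). How reads were split within each of these pairs is uncertain.

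Of the embryonic globins, Hba-x had 18508, 12286, 4970 and 833 counts, Hbb-y 24191, 36693, 19013 and 2174, and Hbb-bh1 4646, 968, 186 and 28. From E11.5 to E12.5 Hbb-bh1 fell 4.39-fold (log2 fold change −2.13, −2.24 to −2.03), whereas Hba-x (−0.46) and Hbb-y (0.73) were not called. All 3 fell at E13.5 and again at E14.5. Hemgn per 1000 globin counts was 3.09 (2.69 to 3.53), 0.249 (0.166 to 0.360), 3.01 (2.73 to 3.32) and 3.42 (2.98 to 3.92). Alas2 on the same measure was 5.43 (4.897 to 6.01), 5.23 (4.82 to 5.68), 7.33 (6.88 to 7.80) and 7.96 (7.27 to 8.70). Set against globin mRNA, then, Hemgn was low at E12.5, and the Alas2 interval at E12.5 overlapped that at E11.5.

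Other blood cells share some of these genes, and their markers were measured in the same libraries. The 14 megakaryocyte and platelet markers summed to 80.9, 76.7, 57.1 and 53.5 CPM, and 6 of the 14 fell at E13.5, when Klf1, Rhag and Hemgn rose. Itgb3 and Vwf held 957 and 732 of the 2259 counts at E13.5 and weigh most in the sum. Neither was called (−0.29 and 0.27), and the median of the list was −1.27. Gp6, Ppbp, Pf4 and Clec1b had the largest falls, and Pf4, platelet factor 4, had 195, 122, 46 and 14 counts. Gata1 is expressed in these cells too, and their part in its level was not tested.

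The 9 mast cell and basophil markers summed to 2.42, 5.26, 7.93 and 11.3 CPM, with 7, 7, 4 and 3 of them at 3 counts or fewer. The highest of them was Hdc, at 4.05 TPM at E13.5. Hdc rose at E12.5 (1.10, 0.68 to 1.53) and was not called at E13.5. Over all genes tested, 7.16% were up-regulated at E12.5 and 1.27% at E13.5. Cpa3 at E12.5, and Cma1 and Tpsb2 at E13.5, passed the low-count filter only through the later library. A fall could hardly have been called for them, so these calls do not support a rise of the list. Cpa3, mast cell carboxypeptidase, had 2, 16, 60 and 51 counts and rose by 1.56 on the log2 scale (0.76 to 2.46) to E13.5, and the proteases Cma1 and Tpsb2 went from 1 count each at E12.5 to 22 and 16 at E13.5. The part of mast cells in the level of Gata1 was not tested.

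Summed myeloid markers were lower at E12.5 than at E11.5, the only library with mesonephros, whose part was not tested. The macrophage sum was lowest at E13.5 and the neutrophil sum at E12.5. Over all genes tested, 7.15% were down-regulated from E11.5 to E12.5. The 12 macrophage markers summed to 87.1, 47.4, 42.9 and 53.7 CPM, and 8 of the 10 tested fell at E12.5, led by Fcgr1 (−2.21), C1qc (−1.71), C1qb (−1.64) and C1qa (−1.49). None of these 10 was called at E13.5 (median 0.05), when the erythroid genes rose. The 10 neutrophil markers summed to 23.2, 7.39, 11.1 and 53.3 CPM, and 6 of the 8 tested fell at E12.5, led by Camp (−2.64), S100a9 (−2.48), S100a8 (−2.24) and Prtn3 (−1.84).

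At E13.5 2 of the 9 neutrophil markers tested rose, S100a8 (1.72) and S100a9 (1.47), and at E14.5 6 of 9 rose, led by Ltf (4.53), Ngp (4.25), Lcn2 (3.37) and Camp (2.88). The part of the blood content of each pool, or of these cells, in the erythroid values was not tested. For the fetal liver, where definitive red cells form, hepatocyte markers were measured. These 10 markers, led by Trf at 6.12 TPM at E11.5, summed to 17.4, 13.8, 11.1 and 13.2 CPM. Trf alone held 317 of their 596 counts at E11.5. Alb had 56, 71, 93 and 55 counts and Afp had 24, 20, 2 and 8. They did not move alike, as Apob fell (−2.78) and Ahsg rose (2.16) at E12.5, and Afp fell (−3.57) at E13.5.

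The 10 endothelial markers, led by Cdh5, summed to 505, 473, 361 and 329 CPM, and none was called between neighbouring days. The part of vessel content in the erythroid values was not tested.

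**Figure D4:**
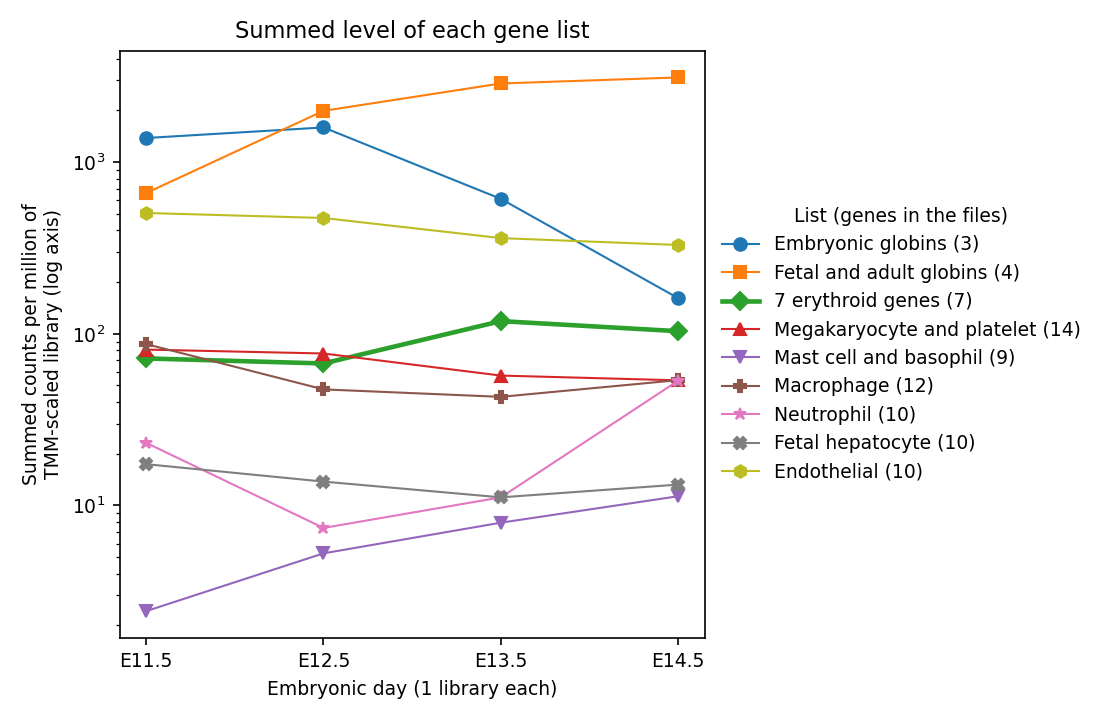
Summed level of the 7 erythroid genes, both globin lists and the marker lists of other cells in the 4 libraries, in CPM after TMM scaling on a log axis. Adult globins, the erythroid genes and the mast cell and neutrophil markers stand higher at E13.5 than at E12.5. Embryonic globins and the megakaryocyte and platelet, macrophage, hepatocyte and endothelial markers stand lower at E13.5 than at E12.5.

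Finally, the 15779 genes with enough counts were ranked by the distance of their profile over the 4 libraries from the mean profile of the 7 genes, both as centred log2 CPM. The mean profile was −0.24, −0.96, 0.53 and 0.68 in order of age. The 10 nearest genes were Icam4 (distance 0.19), Ank1 (0.19), Kcnn4 (0.22), Pgr (0.31), Abcg4 (0.32), Pstpip2 (0.32), Kcnq3 (0.33), Klf14 (0.35), Gfi1b (0.38) and Rhd (0.38), against a median distance of 1.39 over all genes compared. Icam4, Ank1, Gfi1b and Rhd belong to the red cell lists above. All 10 were lowest at E12.5, which follows from ranking them by a mean profile that is lowest there. Of the 7 genes themselves, Gata1 lay nearest to their mean (0.46) and Hemgn farthest from it (1.77). The likeness rests on 4 libraries and is a description only.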

How the data were processed

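Total RNA of pooled gonads was analysed at 4 time points, with 1 library each. Per the methods of the study, the authors depleted ribosomal RNA with probes and RNase H, processed the reads with the SEQuoia toolkit (STAR alignment to mm10, deduplication by UMI, featureCounts) and deposited a count and a TPM for each gene. Tool versions, the annotation release and the strand setting of the counting are not given in the sources used here. Only Alas2 shares exon bases with features of the opposite strand, annotations of miR-3620 with at most 1 count. The deposited TPM were recomputed from the deposited counts and exon lengths without a difference, and the deposited RPKM were not used.

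Models were fitted with edgeR 4.0.16, and DESeq2 1.42.0 gave alternative size factors, both under R 4.3.3. Tables, intervals and plots were made in Python 3.11.15 (scipy 1.17.1, numpy 2.4.6, pandas 2.3.3; matplotlib 3.10.9). For each pair of libraries, genes kept by filterByExpr were scaled by TMM and compared with the exact test of edgeR, its dispersion set to 0.01 (biological coefficient of variation 0.1). DEGs had |log2 fold change| ≥ 1 and FDR ≤ 0.05 over all genes tested. With 1 library per time point the spread cannot be estimated, every call depends on the preset value, and no p-values are given. Log2 fold changes (prior count 0.125) and ratios carry exact Clopper-Pearson 95% intervals, and levels carry exact Poisson intervals, for counting error only. A floor of 3 counts was 0.0945 to 0.117 CPM. CPM were scaled by TMM over the 4 libraries together.

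In simulated libraries, 99, 99, 100 and 99 of 100 genes changed 4-fold were recovered in the comparisons of E12.5 with E11.5, of E13.5 with E12.5, of E14.5 with E13.5 and of E14.5 with E12.5, respectively, and 49, 49, 57 and 47 of 100 genes changed 2-fold. A 2-fold change lies on the line for a call, which sets its recovery. The simulated libraries had the preset spread and no difference in ribosomal RNA, and only well-counted genes were changed. Recovery at low counts or under the ribosomal RNA of E14.5 was therefore not measured.

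The 7 genes were named in every library. From each list the text names every called gene where 5 or fewer were called, otherwise the 4 with the largest change, and the gene of highest TPM. Profiles were compared by Euclidean distance (pseudocount 0.01 CPM, genes with at least 50 counts in their highest library). Genes named outside this rule, among them Alb, were picked once their values were known. The genes and lists were chosen with earlier results of these data known. Promoter sequences came from RefSeq. Some single genes of the lists count in their totals but are not reported here.

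Alternatives were other dispersions, DESeq2 size factors, total counts with and without the most abundant RNAs, other low-count filters, a prior count of 2, a fold of 2 alone, TPM ratios, and sums without Slc4a1.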

Additional observations from a re-analysis of the deposited data

How the results depend on the processing

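The calls rest on the preset dispersion, since no library has a replicate. From E11.5 to E12.5, 2 of the 7 erythroid genes were called, but 1 at a biological coefficient of variation of 0.2, 0 at 0.4 and 1 at the value of 0.3515 estimated with the 4 libraries as replicates. From E12.5 to E13.5 the 3 calls stayed at 0.2 and became 0 at 0.4 and 0 at 0.3515. From E12.5 to E14.5 the 4 calls stayed at 0.2 and became 1 at 0.4 and 1 at 0.3515. Calls over all genes tested at 0.2, 0.4 and 0.3515 were 1822, 286 and 504 from E11.5 to E12.5. They were 54, 1 and 3 from E12.5 to E13.5, and 817, 72 and 139 from E12.5 to E14.5. For the 74 genes of the red cell lists, alternatives chosen after seeing the data gave 5 calls at 0.2 and 0 at 0.4 from E11.5 to E12.5, 3 and 0 from E12.5 to E13.5, and 11 and 0 from E12.5 to E14.5.

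Scaling decided the comparisons with E14.5, whose counts were 48.9% ribosomal RNA. With total counts, 3 erythroid genes and 36 list genes were called from E13.5 to E14.5, all down, and 26 list genes from E12.5 to E14.5, mostly down. Most genes tested were called down on that scaling. From E13.5 to E14.5 they were 11124 of 18992, with 261 up. From E12.5 to E14.5 they were 9854 of 18704, with 379 up. The log2 fold change of the summed erythroid genes became 0.064 (total counts), 0.23 (TPM) and 0.012 (without Slc4a1) from E11.5 to E12.5, 0.99 (TPM) and 0.92 (without Slc4a1) from E12.5 to E13.5, −1.26, −1.68 and 0.15 from E13.5 to E14.5, and −0.41, −0.69 and 1.07 from E12.5 to E14.5. Single genes turned sign as follows. From E11.5 to E12.5 Slc4a1 was 0.12 with TPM. From E13.5 to E14.5 total counts gave Alas2 −1.03, Rhag −0.49, Klf1 −0.60, Gata1 −0.45 and Hemgn −0.97, and TPM gave −1.59, −1.05, −1.16, −1.01 and −1.52. From E12.5 to E14.5 total counts gave Alas2 −0.56, Slc4a1 −0.80 and Epb42 −0.935, and TPM gave −1.01, −1.26 and −1.39. Both settings count the ribosomal RNA in the library size. Of the remaining values, 45 of main comparisons and 87 of single genes kept their direction and their side of the threshold or a similar count, 6 of single genes came past the threshold and 2, both of Gata1, no longer passed it.

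No paired analysis was possible because each time point has 1 library. Fold changes from 3 counts or fewer have wide counting intervals. In simulation 47 to 57 of 100 genes changed 2-fold were recovered, since such a change lies on the line for a call. A missing call thus does not exclude a change near 2-fold.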
